A study of Mus musculus with 12 samples.

Results

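Homeostatic microglia genes are the genes by which resting microglia, the macrophages of the brain parenchyma, are told from other cells. The 9 genes described here (P2ry12, P2ry13, Gpr34, Cx3cr1, Siglech, Fcrls, Tmem119, Olfml3 and Sall1) were chosen by symbol, matched to mouse Ensembl gene identifiers (in that order ENSMUSG00000036353, ENSMUSG00000036362, ENSMUSG00000040229, ENSMUSG00000052336, ENSMUSG00000051504, ENSMUSG00000015852, ENSMUSG00000054675, ENSMUSG00000027848 and ENSMUSG00000031665). All 9 were found among the 35697 genes of a 2018 table and among the 55637 genes of a 2022 table, and all 9 passed the filter on low counts in both. The samples were brain RNA of adult male wild-type C57BL/6J mice, 12 libraries in 4 groups of 3. In the 2018 table, 3 sham libraries, from mice that had the surgery without the blow, stand beside 3 TBI libraries, from mice 7 days after a controlled cortical impact, a piston blow to the exposed cortex. In the 2022 table, all 6 libraries came from mice after the same impact. Here 3 TBI libraries, labelled only as injured, stand beside 3 libraries from mice that also received zileuton, an inhibitor of the leukotriene-forming enzyme 5-lipoxygenase, given in corn oil into the peritoneum in daily doses of 10 mg/kg. The library names give 7 days for all 3 zileuton libraries, whereas the source labels give 7, 8 and 9 days. The labels do not say whether the 2022 TBI mice received corn oil, while the study's text speaks of a vehicle-treated group. The methods give the size of each group in mice, which equals the number of its libraries, but neither they nor the labels say outright that each library came from a single mouse, so p-values measure the spread between these libraries. Injured tissue was pericontusional according to the study's methods. Columns of the 2022 table could be tied to a group but not to a single label, and its libraries are called A, B and C within each group.

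Microglia keep their resting identity through signals from their surroundings, above all transforming growth factor beta and ligands of the receptor Csf1r, which act through factors such as Spi1 (PU.1), Irf8, Mef2c and Sall1. In this state they carry a set of surface receptors that read nucleotides, lipids and chemokines released by neurons and damaged cells. After injury microglia retract their processes, divide and take up debris, and lowered transcript levels of P2ry12, Tmem119 and Sall1 are widely used as a sign that cells have left the resting state. Macrophages that enter from blood or meninges carry little or none of most of these transcripts. Cx3cr1 is also carried by monocytes, P2ry12 by platelets and Siglech by plasmacytoid dendritic cells.

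Total counts per library ran from 42929862 to 48684674 in the 2018 table and from 27845562 to 35453257 in the 2022 table. Gfap, the filament protein of reactive astrocytes, lay at 139 to 217 CPM (counts per 1000000 counts of the library) in sham libraries and at 2260 to 3910 CPM in all injured ones. Xist, the RNA of the inactive X chromosome, lay at 18.2 to 23.7 CPM in all 6 libraries of 2018, sham and TBI, against 0.0366 to 0.202 CPM in 2022, while the Y-linked gene Ddx3y lay at 31.5 to 65.1 CPM in all 12. Xist at this level in 2018 is unlike the label of male mice alone, to about the same extent in both groups. Ddx3y lay at 52.2 to 65.1 CPM in 2018 and at 31.5 to 42.1 CPM in 2022, and the tables were counted in different ways. The source of the Xist reads was not tested. Hbb-y, an embryonic globin gene, was at 1.52 to 3.89 CPM in the sham libraries and at most 0.128 CPM in the TBI libraries of 2018. The part of either in the results below was not tested.

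The members were first placed in the genome. Positions are given in the annotation GENCODE M21 on GRCm38. The submitters' processing notes name GRCm39, but the FPKM of the 2018 table used for each of the 9 members exactly the exonic length of GENCODE M21. P2ry12 (chromosome 3, 59216272 to 59262871) and P2ry13 (chromosome 3, 59207892 to 59210882) are neighbours on the minus strand, and both lie inside Med12l on the opposite strand. The exons of P2ry12 share 9 bases with exons of Med12l, and those of P2ry13 none. Fcrls (87250758 to 87263738) and Olfml3 (103722222 to 103738001) lie further along chromosome 3 on the minus strand, so that 4 of the 9 members share this chromosome. Tmem119 lies on chromosome 5 (113793729 to 113800516), Siglech on chromosome 7 (55768178 to 55778925), Sall1 on chromosome 8 (89027235 to 89044162), Cx3cr1 on chromosome 9 (119901616 to 120069879) and Gpr34 on the X chromosome (13632089 to 13640858). Gpr34 lies inside Cask on the opposite strand, without shared exonic bases. The long annotated span of Cx3cr1 overlaps Wdr48, Gorasp1, Ttc21a, Csrnp1, 1700019L13Rik, Gm47043, Gm49427, Xirp1 and Gm33858, of which the antisense gene Gm33858 alone shares exonic bases with it (78). Whether counting used the strand is not stated, so reads from antisense partners cannot be told apart.

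Promoter sequences, from 250 bases before to 50 bases after a RefSeq transcript start on GRCm38.p6, were at hand for 7 of the 9 members (9 starts, 3 of them of Sall1), and not for Tmem119 and Gpr34. They were searched on both strands for 4 sets of letters: GAGGAAGT, a PU.1 site of macrophage genes, the core of the interferon-stimulated response element, TATAAA, the TATA box, and GGAAGT, the shared end of sites of the ETS family to which PU.1 belongs, which was added after the sequences were seen and which GAGGAAGT contains. Neither GAGGAAGT (held by 3.2% of all 32851 promoters) nor that core (3.44%) was in any of the member promoters. TATAAA (13.6% of all) was in that of Fcrls alone. GGAAGT (23.8% of all) was in promoters of P2ry12, Siglech, Fcrls and Sall1, 4 of the 7 members. Of the 3 Sall1 promoters, only that from 89042813 to 89043112 held it. The shares of all are taken over promoters, so the count of members is not on the same scale. To let the extremes be compared, the promoters of the 2 members with the largest change after TBI and of the one with the smallest are shown 5′ to 3′ in the direction of the gene, with GGAAGT, its reverse ACTTCC and TATAAA in capitals.
Fcrls (GRCm38.p6, chr3:87263475-87263774, minus strand): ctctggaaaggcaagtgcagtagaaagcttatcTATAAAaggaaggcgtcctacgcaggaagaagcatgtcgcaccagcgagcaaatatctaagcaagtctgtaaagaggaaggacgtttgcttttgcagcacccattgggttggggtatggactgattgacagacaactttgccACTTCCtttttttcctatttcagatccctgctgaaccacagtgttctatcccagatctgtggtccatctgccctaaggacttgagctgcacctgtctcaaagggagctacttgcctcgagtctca
Olfml3 (GRCm38.p6, chr3:103737952-103738251, minus strand): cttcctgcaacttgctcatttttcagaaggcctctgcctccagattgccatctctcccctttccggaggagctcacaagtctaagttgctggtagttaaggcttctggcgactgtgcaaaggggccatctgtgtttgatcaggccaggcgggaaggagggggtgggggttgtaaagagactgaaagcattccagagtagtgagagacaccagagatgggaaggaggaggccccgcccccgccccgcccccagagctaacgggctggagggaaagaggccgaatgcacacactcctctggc
P2ry12 (GRCm38.p6, chr3:59262936-59263235, minus strand): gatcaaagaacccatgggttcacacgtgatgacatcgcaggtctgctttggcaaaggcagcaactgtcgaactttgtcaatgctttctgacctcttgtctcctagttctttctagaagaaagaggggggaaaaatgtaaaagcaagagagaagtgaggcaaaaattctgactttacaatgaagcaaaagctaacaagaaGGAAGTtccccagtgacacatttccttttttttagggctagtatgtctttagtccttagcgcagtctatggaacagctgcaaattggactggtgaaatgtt
In the Fcrls promoter TATAAA begins 217 bases and ACTTCC 75 bases before the start, and in the P2ry12 promoter GGAAGT begins 51 bases before it. The Olfml3 promoter holds none of the 4. These matches describe the letters and not a bound site.

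The first comparison asked how the 9 genes stood at 7 days after TBI against sham. All 9 were higher in TBI tissue, none was lower, and in each of the 9 every TBI library lay above every sham library. Their size differed widely, from 7.25-fold for Fcrls and 4.99-fold for Olfml3 to 1.24-fold for P2ry12. In the edgeR quasi-likelihood test all 9 passed an adjusted p-value of 0.05, as did 16.8% of the 19536 genes tested in the upward direction, and groups that did not overlap upward were found for 24.6% of genes. A rise of at least 2-fold was reached by 5 of the 9, against 8.73% of all genes. That count was 6 without TBI 1, 4 without TBI 3 and 5 in every other fit. The median log2 fold change was 1.10 for the members and 0.017 for all genes tested. In bulk tissue a change in the number of cells of a type and a change in RNA per cell cannot be told apart, and all levels below are levels of the tissue.

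**Figure D1:**
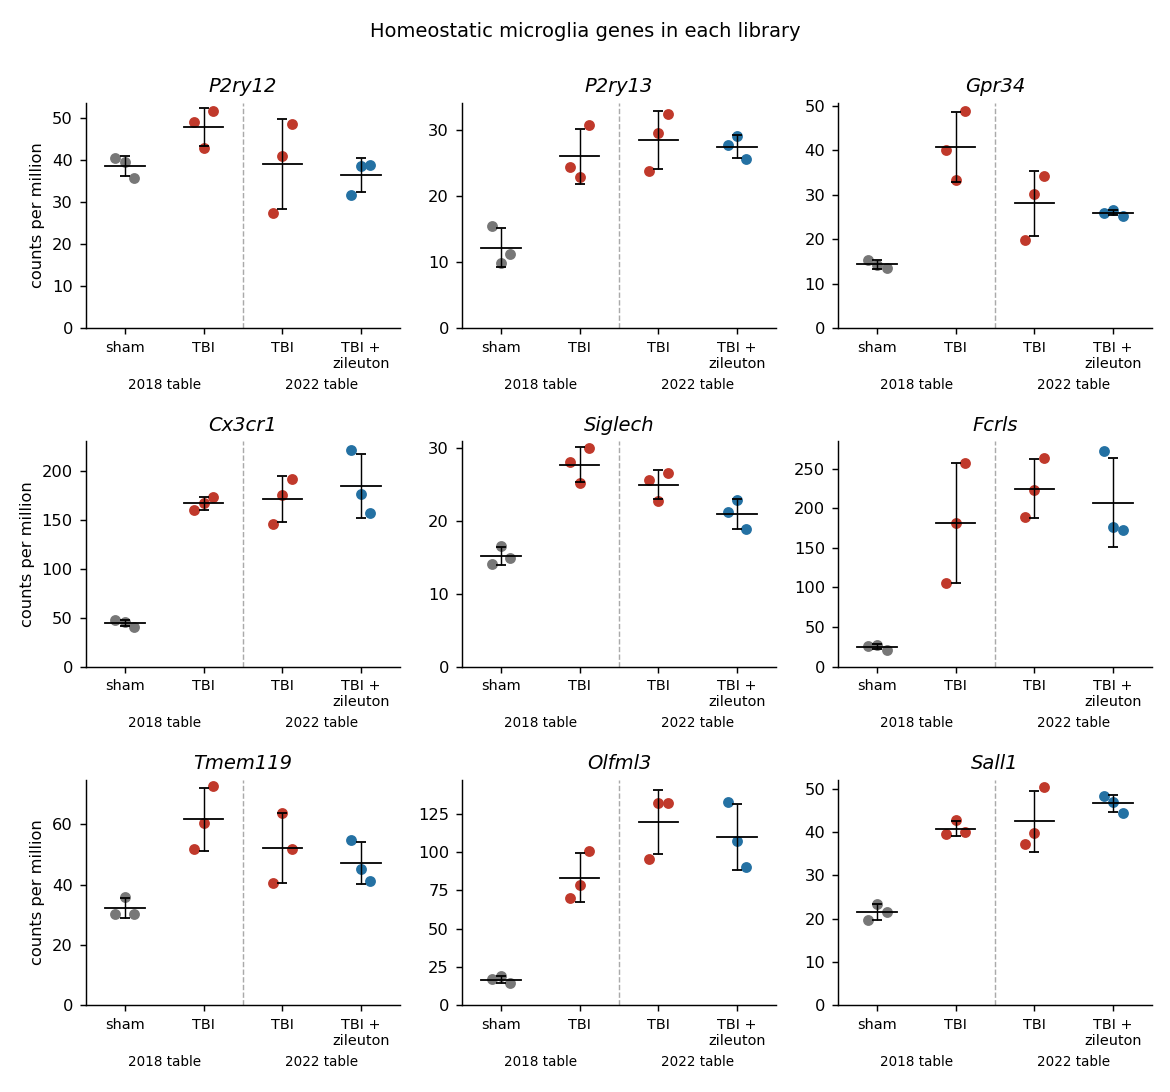
CPM (vertical axis from 0, a scale of its own for each gene) of the 9 homeostatic microglia genes in each of the 12 libraries. Points are libraries, horizontal lines are means and bars are SD (n = 3), and the dashed line parts the 2018 table from the 2022 table, whose levels were not compared. In the 2018 table every TBI library lies above every sham library for all 9 genes, and in the 2022 table the groups overlap for all 9.

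Among the purinergic receptors, P2ry12, the ADP receptor that draws microglial processes to sites of damage, was at 40.4, 39.6 and 35.8 CPM in the sham libraries and at 49, 42.8 and 51.7 CPM in the TBI libraries. The lowest TBI library lay only just above the highest sham library. P2ry12 was 1.24-fold higher (log2 fold change 0.31, SE 0.094, 95% interval of the fold 1.07 to 1.44, edgeR adjusted p = 0.0382), and 28.9% of all genes tested had a larger log2 fold change. Its call was lost in several other fits: the adjusted p-value was 0.0543 with DESeq2, 0.0635 with the equal-variance test on FPKM, 0.13 with a trend in gene length removed and 0.0695 to 0.156 without any 1 of 5 of the 6 libraries (sham 1, 2 or 3, TBI 1 or 3). Med12l, the gene around it, was lower in TBI tissue (27.2 against 20.7 CPM, log2 fold change -0.40, edgeR adjusted p = 0.0283).

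P2ry13, a second ADP receptor, was at 15.4, 9.79 and 11.2 CPM in sham and at 24.4, 22.8 and 30.7 CPM in TBI libraries. It was 2.14-fold higher (log2 fold change 1.10, SE 0.182, edgeR adjusted p = 0.00247), with the widest relative spread of any member among the sham libraries. The 2 receptors thus rose by unequal amounts: the log2 ratio of P2ry12 to P2ry13 was 1.69 in sham and 0.89 in TBI tissue, with every TBI library below every sham library. Gpr34, a receptor for lysophosphatidylserine, was at 15.4, 14.1 and 13.5 CPM in sham and at 40.1, 33.3 and 48.9 CPM in TBI libraries, a 2.84-fold rise (log2 fold change 1.51, SE 0.14, edgeR adjusted p = 0.000105).

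Cx3cr1 is the receptor of the neuronal chemokine fractalkine. It was at 47.1, 45.6 and 40.5 CPM in sham and at 160, 167 and 173 CPM in TBI libraries. With a 3.75-fold rise (log2 fold change 1.91, SE 0.0812, edgeR adjusted p = 3.51e-06) it had the smallest error of the 9, and the TBI libraries lay close together. Its ligand Cx3cl1, made by neurons, was lower (667 ± 49.9 against 535 ± 41.9 CPM, SD, n = 3, log2 fold change -0.32, edgeR adjusted p = 0.03), so that receptor and ligand transcripts differed in opposite directions. Cx3cl1 was the one gene called lower among the ligands and partners of the members, and in 7 of the 18 other fits no gene of that list was called lower: limma on log2(FPKM + 1) with and without a filter, the equal-variance test, the replicate block, and the fits without sham 2, sham 3 or TBI 2.

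Siglech, a lectin of the sialic acid-binding family that signals through the adaptor Tyrobp, was at 14.0, 16.5 and 14.9 CPM in sham and at 28, 25.2 and 29.9 CPM in TBI libraries. It was 1.83-fold higher (log2 fold change 0.87, SE 0.107, edgeR adjusted p = 0.000507). Fcrls, a scavenger-type member of the Fc receptor-like family, was at 25.9, 27.6 and 21.4 CPM in sham and at 106, 181 and 257 CPM in TBI libraries. It showed the largest rise of the 9, 7.25-fold (log2 fold change 2.86, SE 0.284, 95% interval of the fold 4.64 to 11.4, edgeR adjusted p = 0.000155), and also the largest spread, since TBI 3 held more than double the CPM of TBI 1. With the equal-variance test on FPKM its adjusted p-value was 0.0829, the only fit of 18 in which a member other than P2ry12 was not called.

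Tmem119, a membrane protein used as a marker of parenchymal microglia, was at 30.3, 36.0 and 30.2 CPM in sham and at 51.9, 60.5 and 72.6 CPM in TBI libraries (1.92-fold, log2 fold change 0.94, SE 0.13, edgeR adjusted p = 0.001). Olfml3, a secreted protein of the olfactomedin family, was at 17.2, 18.7 and 14.2 CPM in sham and at 70.1, 78.7 and 101 CPM in TBI libraries (4.99-fold, log2 fold change 2.32, SE 0.154, edgeR adjusted p = 1.92e-05). Sall1, the transcription factor of microglial identity, was at 19.6, 23.3 and 21.4 CPM in sham and at 39.6, 42.8 and 39.9 CPM in TBI libraries (1.90-fold, log2 fold change 0.93, SE 0.0918, edgeR adjusted p = 0.000151). The 95% intervals of Tmem119 (1.56 to 2.35-fold) and Sall1 (1.65 to 2.20-fold) overlapped, and that of Olfml3 (3.91 to 6.36-fold) lay above both.

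**Figure D2:**
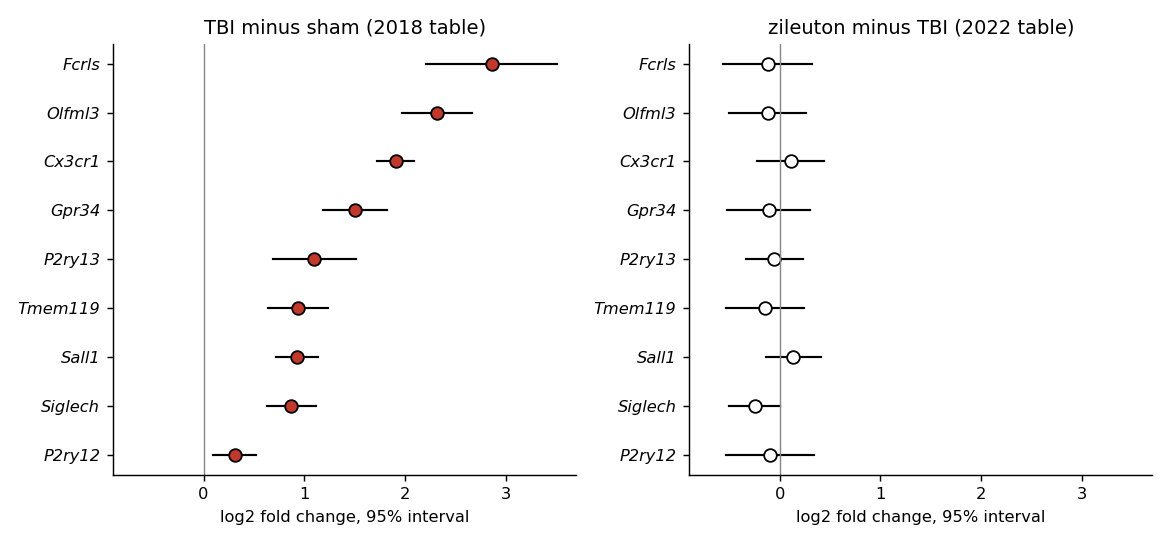
Log2 fold change (horizontal axis) of each member with its 95% interval from the edgeR fit, TBI minus sham on the left and zileuton minus TBI on the right, n = 3 libraries in each group. Filled points passed an adjusted p-value of 0.05: all 9 after TBI, from 0.31 for P2ry12 to 2.86 for Fcrls, and none with zileuton.

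Each gene was then set against the other 8, as its log2 CPM minus their mean in the same library, a quantity on which the scaling of libraries has no effect. Since these differences sum to 0 over the 9, some must fall where others rise. They were not tested, since 3 libraries against 3 cannot give an exact permutation p-value under 0.1. Groups did not overlap for 7 of the 9 members, 4 of them lower and 3 higher. By the difference from the mean of all 9 members, groups did not overlap downward for 82.7% and upward for 3.41% of all genes.

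Fcrls (1.54 log2 units), Olfml3 (1.02) and Cx3cr1 (0.57) stood higher against the others in TBI than in sham tissue. P2ry12 differed most among the lower ones, going from a mean of 0.90 ± 0.0211 in sham to -0.33 ± 0.176 in TBI (SD, n = 3), a change of -1.23. It had stood 0.88 to 0.93 log2 units above the other members in the 3 sham libraries, and stood 0.13 to 0.44 log2 units below them in the 3 TBI libraries. Siglech (-0.60), Tmem119 (-0.53) and Sall1 (-0.53) were also lower, each with no overlap. For P2ry13 (-0.33) and Gpr34 (0.10) the groups overlapped.

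**Figure D3:**
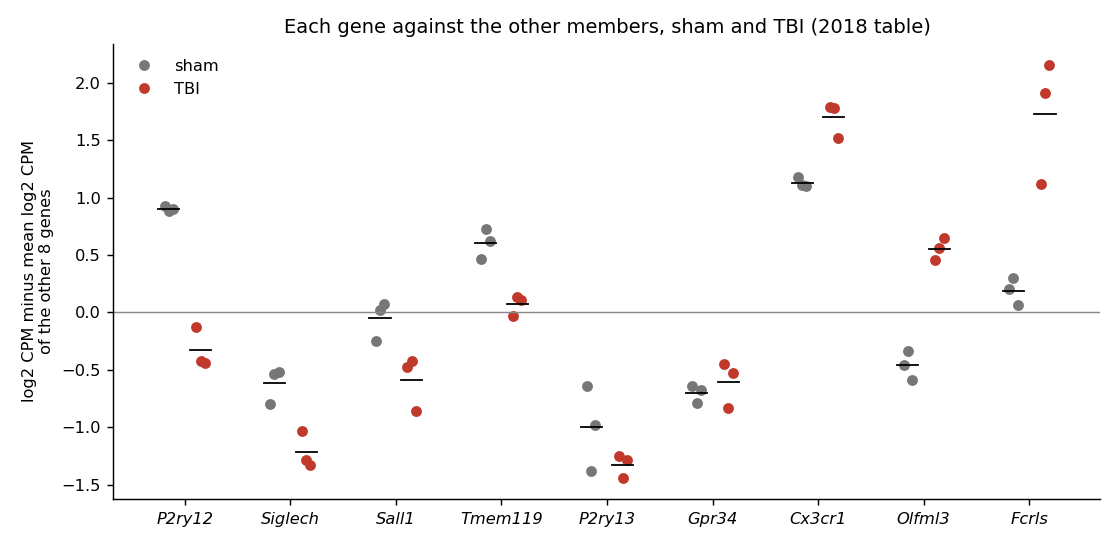
Log2 CPM of each member minus the mean log2 CPM of the other 8 (vertical axis) in the 3 sham libraries (grey) and the 3 TBI libraries (red) of the 2018 table, with black lines for means. P2ry12 passes from above the others (mean 0.90) to below them (-0.33), Fcrls, Olfml3 and Cx3cr1 lie higher in TBI libraries, and the groups overlap only for P2ry13 and Gpr34.

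Of the 36 pairs of members, 29 had log2 ratios that did not overlap between sham and TBI, against 42.5% of all pairs of genes tested. As pairs share members, they are not independent of one another. The largest shift was that of P2ry12 to Fcrls, from 0.63 to -1.83. The 7 pairs that overlapped joined P2ry13 with Siglech, Tmem119 and Sall1, Siglech with Tmem119 and Sall1, Gpr34 with Sall1, and Tmem119 with Sall1. In the last pair the mean ratio moved by 0.00095 log2 units, and that of Siglech to Tmem119 by -0.058. All 3 pairs that Siglech, Tmem119 and Sall1 form with one another were among the 7.

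Levels between genes are compared per exonic length, as FPKM (fragments scaled to exonic length and library size). In sham tissue the order was P2ry12 (14.9 ± 0.90 FPKM, SD, n = 3), Tmem119 (13.6 ± 1.43), Fcrls (10.5 ± 1.35), Cx3cr1 (9.67 ± 0.72), Gpr34 (6.74 ± 0.41), P2ry13 (4.70 ± 1.10), Siglech (4.39 ± 0.40), Sall1 (4 ± 0.37) and Olfml3 (2.66 ± 0.36). The FPKM of neighbours overlapped between P2ry12 and Tmem119, between Fcrls and Cx3cr1, and from P2ry13 through Siglech to Sall1. In TBI tissue Fcrls was first (78.9 ± 32.3 FPKM), with Cx3cr1 (37.6 ± 1.50), Tmem119 (27.1 ± 4.4), Gpr34 (19.8 ± 3.47) and P2ry12 (19.1 ± 1.47) next. Olfml3 (13.7 ± 2.51) had passed P2ry13 (10.4 ± 1.54), Siglech (8.32 ± 0.58) and Sall1 (7.88 ± 0.48). Neighbours overlapped from Tmem119 through Gpr34 to P2ry12, between Olfml3 and P2ry13, and between Siglech and Sall1.

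Of the FPKM summed over the 9 members (65.9 to 74.8 in sham, 180 to 269 in TBI libraries), P2ry12 made up 20.5% to 21.2% in sham and 7.56% to 10.8% in TBI libraries. Fcrls went the other way, from 13.7% to 15.6% in sham to 25.4%, 36.8% and 41.0% in TBI libraries. Olfml3 made up 3.45% to 3.98% in sham and 6.06% to 6.37% in TBI libraries, and Tmem119 17.6% to 20.4% and 11.7% to 12.6%. These shares were not tested. The place of Olfml3 rests on its exonic length of 6161 bases, the longest of the 9, which ranges down to 2090 bases for Gpr34.

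**Figure D4:**
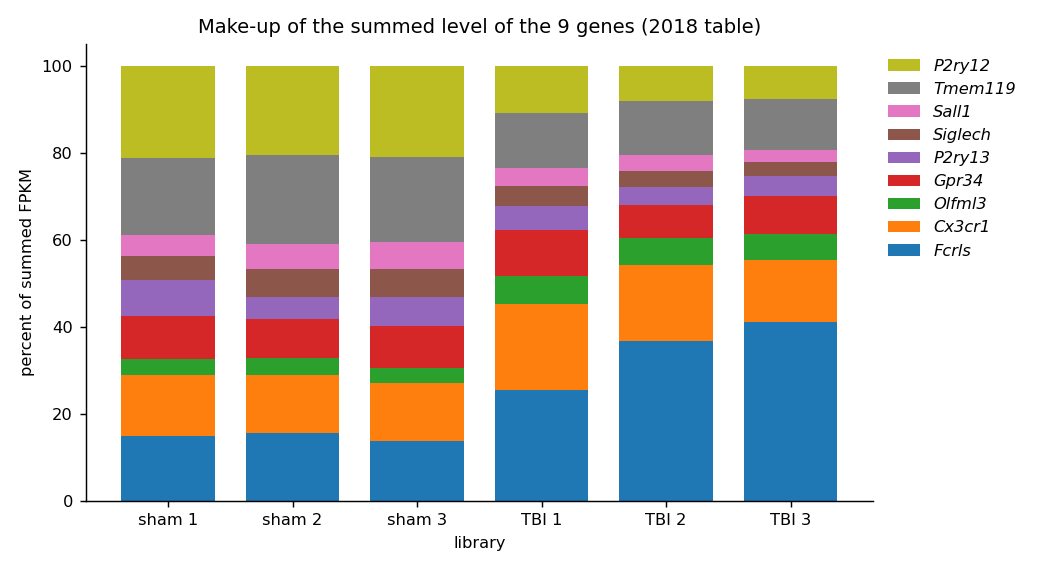
Share of each member, in percent (vertical axis from 0), in the FPKM summed over the 9 members for each of the 6 libraries of the 2018 table. Fcrls takes at most 15.6% in sham libraries and at least 25.4% in TBI libraries, and P2ry12 at least 20.5% and at most 10.8%.

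Genes that microglia and macrophages share had a higher median change than the members. Of 16 pan-myeloid genes, 15 were higher and none lower in TBI tissue, with a median log2 fold change of 3.06. C1qa, which encodes a chain of the complement protein C1q, went from 63.0 to 601 CPM (log2 fold change 3.25). Ctss, a lysosomal protease, went from 63.8 to 543 CPM (3.09) and the phosphatase Ptprc from 2.24 to 30.9 CPM (3.79). Coro1a, by contrast, did not pass the test (101 and 103 CPM, edgeR adjusted p = 0.884). The mean log2 CPM of the members minus that of the pan-myeloid genes was 0.62 ± 0.0324 in sham and -0.82 ± 0.151 in TBI libraries, a difference of -1.44 that lay between -1.51 and -1.36 with any 1 library left out. Against these genes 8 of the 9 members were lower without overlap, P2ry12 by most (-2.54), and Fcrls alone overlapped (-0.07). As 95.5% of all genes were lower without overlap on this scale, the direction is not particular to the members.

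Csf1r, the receptor on which microglia depend, rose from 95.3 ± 7.62 to 333 ± 38.7 CPM (3.5-fold) and Aif1, which encodes the stain IBA1, from 6.15 ± 1.11 to 33.2 ± 7.55 CPM (5.39-fold, SD, n = 3 each). Cx3cr1, at 3.75-fold, lay nearest to Csf1r among the members, and its 95% interval of 3.30 to 4.27-fold overlapped that of Csf1r (2.97 to 4.12-fold).

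A wider list of 28 other homeostatic microglia genes held 23 that were higher, none that was lower and 5 that did not pass (19 to 24 higher over the other fits), with a median log2 fold change of 1.67. Beside the genes named by rule, P2ry6, Selplg, Mertk, Lrrc3, Slc2a5 and Abcc3 are named here after their values were seen. Lag3 rose most (4.90 to 55.4 CPM, 11.3-fold), and P2ry6, a UDP receptor of phagocytosis, rose 6.99-fold (2.5 to 17.5 CPM). Sparc, the matrix protein with the highest level in the list, rose from 242 to 629 CPM (2.60-fold), and Selplg 1.74-fold. The 5 that did not pass were Mertk (51.8 and 60.9 CPM, edgeR adjusted p = 0.226), Bin1, Lrrc3, Slc2a5 and Upk1b (log2 fold change -0.06). P2ry12 with 0.31 therefore stood near this lower end of the list, and Fcrls with 2.86 beside Abcc3 (2.87).

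All 18 genes of activated microglia were higher (11 with the equal-variance test on FPKM, median log2 fold change 2.59), among them Apoe (1580 to 8470 CPM). The lectin Clec7a rose most (0.13 to 34.2 CPM) and Fabp5 least (87 to 164 CPM, log2 fold change 0.92). The summed level of the 18 genes was 2640 to 2860 CPM in sham and 12300 to 16600 CPM in TBI libraries, against 203 to 231 and 569 to 805 CPM for the members.

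Ligands and signalling partners of the members rose in 9 of 16 cases and fell in 1, with a median log2 fold change of 0.72. The fall was that of Cx3cl1. Tyrobp, the adaptor of Siglech, rose from 12.7 to 121 CPM (9.52-fold), far beyond Siglech itself. Adam17, Adam10, Entpd1, Nt5e and Kcnk13 are named after their values were seen. Adam17, a protease that sheds fractalkine, rose 2.56-fold (16 to 40.8 CPM), while Adam10, a second such protease, was at 97.9 and 104 CPM (edgeR adjusted p = 0.377). Entpd1, which breaks down extracellular ATP and ADP, rose 2.24-fold, and Nt5e, which acts after it, did not pass (6.19 and 9.64 CPM, edgeR adjusted p = 0.0511). Kcnk13, the THIK-1 potassium channel of microglia, rose 2.07-fold (6.12 to 12.7 CPM), and the G protein subunit Gnai2 1.85-fold.

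Regulators of microglial identity rose in 12 of 20 cases and fell in 2 (1 with limma without a filter or the equal-variance test), with a median of 0.85. Runx1 (3.29 on the log2 scale), Irf8 (3.01) and Spi1 (2.92) rose most, followed by Tgfbr2 (2.12), Tgfb1 (1.99) and Csf1r (1.81). The falls were those of Mef2c, a factor also abundant in neurons (902 ± 104 to 568 ± 118 CPM, log2 fold change -0.67, edgeR adjusted p = 0.0128), and Il34, a neuronal ligand of Csf1r (57.8 ± 2.24 to 44.3 ± 2.68 CPM, -0.38, edgeR adjusted p = 0.00653). The 6 that did not pass were Sall3 (0.40), Mef2a (0.09), Smad4 (-0.02), Itgav (-0.03), Smad2 (-0.04) and Smad3 (-0.32, edgeR adjusted p = 0.0854). Of these regulators, Runx1, Csf1r, Mef2a and Mef2c are named by rule and the others after their values were seen. Sall1 with 0.93 thus stood near the median of the list of regulators.

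Markers of other cells moved with the comparison as well. With the equal-variance test on FPKM the counts given next were 2 of the monocyte, 1 of the neutrophil and 1 of the border macrophage genes. Of 9 monocyte genes tested all 9 were higher (summed level 75.9 to 83.4 CPM in sham and 740 to 1440 CPM in TBI libraries), led by Lyz2 (9.53 to 829 CPM). Of 6 neutrophil genes tested all 6 were higher (4.34 to 5.26 against 47.0 to 99.3 CPM), with Ly6g, Mpo, Elane and Camp under the filter. Of 10 genes of border macrophages, which line vessels and meninges, 8 were higher (29.7 to 36.2 against 175 to 266 CPM), Stab1 from 13.2 to 135 CPM and Mrc1 from 6.07 to 16.5 CPM, while Lyve1 was at 1.65 and 1.63 CPM. Of the cells that can carry single members, platelet genes summed to 4.57 to 5.53 CPM in sham and 3.76 to 4.06 CPM in TBI libraries (0 of 4 tested higher, 1 lower, a call lost in 11 of 18 other fits, with Gp1bb at 0 in all 6). Of 4 tested genes of plasmacytoid dendritic cells none was higher and 1, Pacsin1, which neurons also carry, was lower (422 to 302 CPM).

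Neuronal genes were lower in 5 of 10 cases (Snap25 2750 to 1770 CPM), astrocyte genes higher in 6 of 8, endothelial and mural genes in 5 of 9 (3 without sham 1 or sham 2) and fibroblast genes in 5 of 7 (3 without any 1 of the sham libraries). Oligodendrocyte genes were higher in 5 of 8, a count that was 1 without sham 1 or sham 2, 2 without sham 3, 3 without TBI 1 or TBI 2 and 7 without TBI 3. Over the other fits that kept all libraries this count ran from 0 to 6. The part of these cells in the results for the members was not tested.

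**Figure D5:**
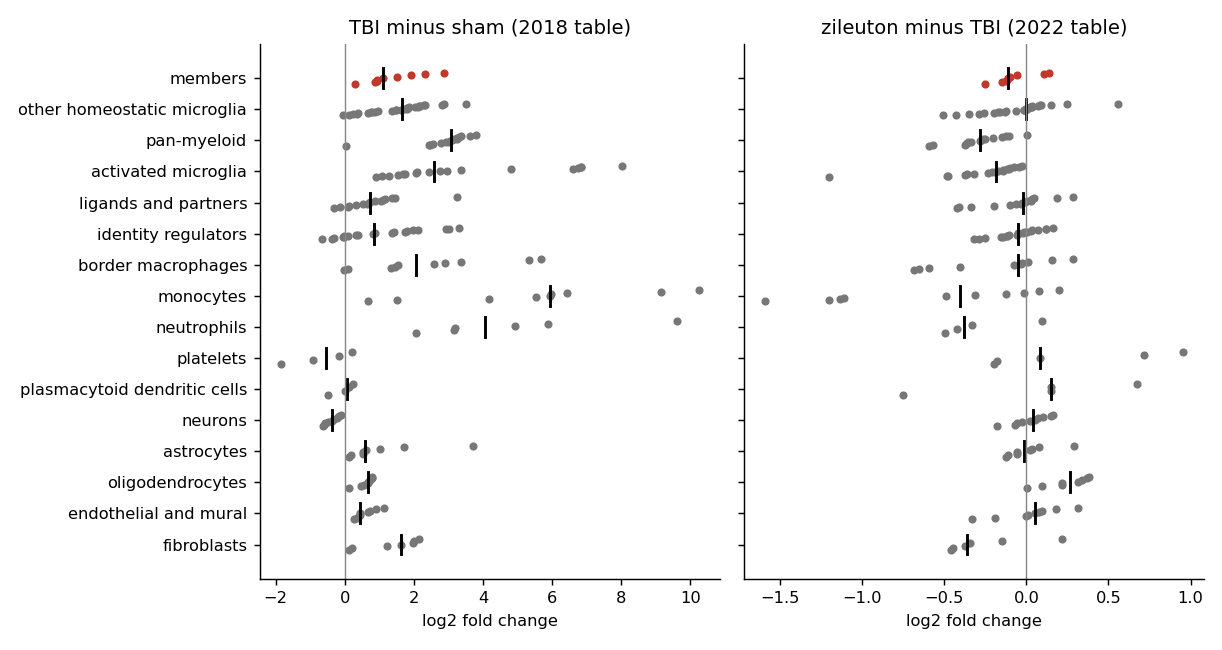
Log2 fold change (horizontal axis, a scale of its own for each panel) of every gene tested in the members (red) and in 15 further lists (grey), TBI minus sham on the left and zileuton minus TBI on the right. Each point is a gene and black bars are medians, 1.10 for the members against 3.06 for the pan-myeloid list after TBI, and -0.11 against -0.28 with zileuton.

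The second comparison asked whether zileuton changed these genes in injured tissue. None of the 9 members passed an adjusted p-value of 0.05 in edgeR, as none of the 17363 genes tested did (0%, smallest adjusted p = 0.185). DESeq2 called 6 genes higher and 21 lower, with no member among them. At an unadjusted p-value under 0.05 there was likewise no member, against 6.83% of all genes (1186), although 2 members (P2ry12 and Gpr34) were under it without TBI A and 1 in several other fits. In CPM the groups overlapped for all 9 members, and they did not for 13.6% of all genes. With 9 genes this cannot be told from the share over all genes. Log2 fold changes ran from -0.25 to 0.14, with 7 members below 0 and 2 above, and a median of -0.11 against 0.0025 for all genes. This direction did not hold throughout: without TBI C the median was 0.04, with 6 members above 0, in the equal-variance test on TPM it was 0.0054, and without TBI A it was -0.23. It was -0.01 in the limma fits and without zileuton C it was -0.0052, and without TBI B -0.05. Taken gene by gene in the edgeR fit, the 95% intervals of the 9 members reached from 0.677-fold (Fcrls) to 1.36-fold (Cx3cr1). A 2-fold change of any member in either direction lay outside them. These intervals hold for that fit and are not adjusted for the number of genes. The estimates moved with single libraries, that of Fcrls to as low as -0.37 on the log2 scale with 1 left out.

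Siglech was nearest to a change. It was at 25.6, 22.7 and 26.5 CPM in TBI and at 21.2, 22.9 and 18.8 CPM in zileuton libraries, and zileuton B lay just above the lowest TBI library. Its fold was 0.841 (log2 fold change -0.25, SE 0.109, 95% interval -0.50 to 0.0016, edgeR unadjusted p = 0.0512, adjusted p = 0.713), and the unadjusted p-value was under 0.05 in 5 of 11 other fits and without TBI B or zileuton B.

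P2ry12 was at 27.5, 41.1 and 48.5 CPM in TBI and at 31.8, 38.7 and 38.8 CPM in zileuton libraries, so the zileuton libraries all lay within the range of the TBI libraries (log2 fold change -0.10, SE 0.191, 95% interval -0.54 to 0.34). P2ry13 was at 23.7, 29.4 and 32.3 CPM against 27.6, 29.0 and 25.6 CPM (-0.05, SE 0.124). Gpr34 was at 19.8, 30.1 and 34.2 CPM against 26.0, 26.5 and 25.3 CPM (-0.11, SE 0.18). For these 3 receptors TBI A was the lowest of the TBI libraries, and the TBI group spanned a wider range than the zileuton group. Without TBI A the unadjusted edgeR p-value was 0.0451 for P2ry12 and 0.016 for Gpr34, both lower with zileuton.

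Cx3cr1 was at 146, 175 and 192 CPM in TBI and at 221, 176 and 157 CPM in zileuton libraries (0.11, SE 0.145). Fcrls was at 189, 223 and 263 CPM against 272, 176 and 173 CPM (-0.12, SE 0.192), and Olfml3 at 95.4, 132 and 132 CPM against 133, 107 and 90.2 CPM (-0.12, SE 0.166). In all 3, zileuton A was the highest of its group and lay at or above every TBI library. Tmem119 was at 40.7, 63.7 and 52.0 CPM against 54.9, 45.3 and 41.2 CPM (-0.15, SE 0.169), and Sall1 at 37.3, 39.7 and 50.5 CPM against 48.4, 47.0 and 44.5 CPM (0.14, SE 0.117). Neither group stood apart in either gene.

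Against the other 8 members, Sall1 (0.24 log2 units) and Cx3cr1 (0.19) were higher with zileuton without overlap, and the other 7 overlapped, from -0.21 for Siglech to 0.02 for P2ry13. On the scale of the mean of the 9 members, 4.48% of all genes were higher without overlap, and 5 of the 36 pairs of members did not overlap, a share near the 13% of all pairs of genes. The widest of these was Siglech to Sall1, whose log2 ratio differed by -0.40. Against the 16 pan-myeloid genes the members differed by 0.22 with overlap (0.14 to 0.35 with any 1 library left out, the lowest without zileuton C and the highest without zileuton A), and Cx3cr1 by 0.39 without, as 7.19% of all genes were higher without overlap on this scale. In TPM (transcripts scaled to length and to a fixed total) the order of levels was led in both groups by Fcrls (203 ± 31.1 in TBI and 204 ± 50.5 in zileuton libraries, SD, n = 3), Cx3cr1 (84.6 ± 8.02 and 98 ± 18.2) and P2ry12 (53.7 ± 16.3 and 59.2 ± 8.77), and Sall1 was last (14.2 ± 1.76 and 16.3 ± 0.95). Only Fcrls, Cx3cr1 and, at the lower end, Sall1 stood clear of their neighbours in both groups. The TPM are not set beside the FPKM of the 2018 table, because lengths differed between the tables. In the 2022 table the ratio of counts to TPM, for a fixed library total, also varied between libraries. Its spread was 35.6% for P2ry12 and 9.18% (Gpr34) to 21.8% (Fcrls) for the other members. This ratio holds length together with a factor common to all genes of a library.

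None of the genes of the other lists passed the adjusted threshold with zileuton. At an unadjusted p-value under 0.05, 2 of 28 other homeostatic genes were lower, among them Hpgds (log2 fold change -0.35, named after its value was seen), 2 of 16 pan-myeloid genes, Aif1 (-0.59) and Ctss (-0.57), 1 of 18 activated microglia genes and 2 of 10 monocyte genes. In the same edgeR fit 6.83% of all genes were under it in either direction (1186 of 17363). These counts depended on single libraries: the pan-myeloid count was 8 without TBI A, 10 without zileuton A and 0 without TBI C, zileuton B or zileuton C. Without TBI A and without zileuton A, in that order, the counts were 4 and 6 for the other homeostatic genes, 6 and 4 for the activated microglia genes and 4 and 5 for the monocyte genes. The count of other homeostatic genes was 1 without TBI C or zileuton B and 0 without zileuton C, and that of monocyte genes 1 without TBI B or zileuton B. The number over all genes, in either direction, moved as well: 1084 of 17720 without TBI A and 1909 of 17632 without zileuton A. It was 1433 of 17610 without TBI B and 1023 of 17696 without TBI C. Without zileuton B it was 689 of 17662, and without zileuton C 777 of 17708. Csf1r (363 and 369 CPM, edgeR unadjusted p = 0.898) did not pass. None of the 16 ligands and partners and none of the 20 identity regulators had an unadjusted p-value under 0.05, Cx3cl1 being at 631 and 719 CPM. The log2 fold change of a gene in this comparison went with its length over all genes tested (Spearman's rho 0.374, taken over genes, which are no replicates of one another, and -0.115 in the comparison of TBI with sham), and with that trend removed no member was called either. The summed level of oligodendrocyte genes was 4250 to 9370 CPM in TBI and 8610 to 8870 CPM in zileuton libraries, and that of monocyte genes 648 to 1490 and 601 to 1230 CPM. The part of either was not tested.

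The genes whose pattern was most like that of each member were sought over the 12 libraries, by the root mean square distance of log2 CPM centred on each table, among 16516 genes tested in both tables, members left out. Sall1 lay nearest to Nfkb1 (0.0653 log2 units), Kcnj10 and Lima1, and Tmem119 to Edem1 (0.0696), Dpp7 and Nfkbia. Olfml3 lay nearest to Arhgap30 (0.080), Lcp2 and Tbxas1, and Siglech to Serpinb9 (0.0909), Blvrb and Adamts2. Cx3cr1 lay nearest to Csf1r (0.098), Slco2b1 and Lpcat2, and P2ry13 to Ap5b1 (0.106), Cd83 and Lamp2. P2ry12 lay nearest to Eci1 (0.115), Mtmr14 and Cradd, Gpr34 to Creg1 (0.13), Cyp4v3 and Adam17, and Fcrls to Ly86 (0.161), S100a11 and C1qb. The nearest other member was farther off in every case, from 0.185 for the pair Sall1 and Siglech to 0.29 for P2ry12, whose nearest member was Sall1. As 16516 genes were searched against 8 other members, this order does not show that members were less alike than unrelated genes.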

How the data were processed

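RNA from brain tissue of 12 mouse libraries was sequenced by the authors as paired-end poly(A) libraries. The authors deposited a 2018 table of read counts per gene with FPKM (fragments scaled to exonic length and library size) and a 2022 table of estimated counts with TPM (transcripts scaled to length and to a fixed total). The submitters' processing notes name HISAT2, featureCounts, Subread, DESeq2 and GRCm39, without versions, and the use of strand is not given in the sources used here. Of the deposited estimated counts above 0, 32.2% were not whole, and all were rounded before testing, where whole counts had been planned for. Of the deposited 2018 counts from 1 to 20, 63.6% were even, so dividing them by 2 was tried.

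Each table was tested on its own with edgeR 4.0.16 (R 4.3.3; filterByExpr, TMM, quasi-likelihood F-test) with Benjamini-Hochberg adjustment over all genes tested, 19536 in the 2018 table and 17363 in the 2022 table. Calls were made at an adjusted p-value of 0.05, and p-values are two-sided. CPM were scaled by TMM, except in the checks of labels, and log2 CPM had a prior count of 2. Alternatives were DESeq2 1.42.0, other scalings and filters, limma 3.58.1 on log2(FPKM or TPM + 1 or + 0.1), an equal-variance test on the same values, removal of a trend with gene length, a replicate block, and each library left out in turn. The scripts were tested on simulated data.

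The members and gene lists were chosen with earlier results of these data known. By rule the 9 members, Csf1r, Aif1, Cx3cl1, Med12l and genes overlapping a member are named. So are the 3 genes most like each member. For each other list the rule picked the 3 genes of highest mean CPM and those of highest and lowest fold change after TBI. Not all of these list genes are named above. Other genes are named as chosen after their values were seen. Some items, with the results that need them, including a planned second denominator for the comparison with pan-myeloid genes, are not reported here.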

Additional observations from a re-analysis of the deposited data

How the results depend on the processing

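Of the 9 members, 7 were called higher in TBI tissue in all 18 other fits, Fcrls in 17 and P2ry12 in 7. The adjusted p-value of P2ry12 was 0.0519 with DESeq2 size factors, 0.0543 with DESeq2, 0.0569 without a filter, 0.0635 with the equal-variance test and 0.13 with the length trend removed, and its log2 fold change stayed between 0.217 and 0.383 over all 18. The mean of the members against the pan-myeloid genes differed by -1.44 log2 units between TBI and sham, and by -1.51 to -1.36 with any 1 library left out.

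With zileuton no member passed the adjusted threshold in any of the 17 other fits. At an unadjusted p-value under 0.05, 0 members were found in edgeR and 1 (Siglech) without a filter, in the 3 limma fits and in the equal-variance test, and 0 to 2 with any 1 library left out, 2 without TBI A (P2ry12 and Gpr34). The split of the members was 7 below and 2 above 0 in edgeR, 4 or 5 above in the limma and equal-variance fits on TPM, and 6 above without TBI C.

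The libraries share numbers in the labels of both years. For the 2022 table the numbers in the column names were used, which match no single label. Correlations of deviations between same-numbered libraries were -0.0228, -0.0944 and -0.0326 in the 2018 table and -0.28, 0.0628 and -0.282 in the 2022 table. Those between unlike-numbered libraries ran from -0.104 to 0.13 in the 2018 table and from -0.073 to 0.313 in the 2022 table. With 3 libraries in each group these values cannot decide whether the libraries were paired. With the replicate block the log2 fold change of P2ry12 was 0.31 (edgeR adjusted p = 0.0854), and genes at an unadjusted p-value under 0.05 with zileuton numbered 729 against 1186. In the equal-variance test 1757 genes were higher and 864 lower after TBI, against 3286 and 2193 in edgeR, and endothelial and fibroblast genes had 0 higher calls each.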
